A study of Mus musculus with 6 samples.

Results

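The genes described here encode the secreted glycoproteins of the extracellular matrix other than collagens, together with laminins, nidogens and large proteoglycans. They were taken by symbol from a list of 52 genes in 6 classes, a list drawn up with earlier results of these data known. Of the 52, 47 had a row among the 12830 genes of the table: 11 of 12 fibronectin and matricellular genes, 6 of 8 elastic fibre genes, 5 of 6 fibulins, 8 of 8 laminin and nidogen genes, 3 of 4 large proteoglycans and 14 of 14 other secreted glycoproteins. Tnxb, Eln, Mfap4, Fbln7 and Acan had no row and are not analysed here. The study measured messenger RNA by sequencing in primary bone marrow stromal cells (BMSCs) from 8-week-old mice after 2 days of osteogenic induction, a culture condition that drives stromal cells towards bone-forming osteoblasts. It compared 3 control libraries, called FF here, from mice with a floxed Rras2 allele (Rras2f/f), with 3 knockout libraries, called cKO here, from Prx1;Rras2f/f mice. Both groups thus carry the floxed allele and received the same induction. Prx1 is the promoter that drives the Cre recombinase in limb bud mesenchyme, so blood-derived cells in a marrow culture lie outside its known reach. Whether the libraries came from separate animals is not stated, so the p-values measure the spread between these libraries, which may be technical, and strain and sex are not given.

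Rras2 encodes R-Ras2 (TC21), a small GTPase of the Ras family. Matrix glycoproteins give the collagen scaffold its cell-binding and regulatory properties. Fibronectin and the matricellular proteins (thrombospondins, tenascins, periostin, SMOCs) bind integrins and growth factors, fibrillins and fibulins build and guide elastic fibres, and laminins with nidogens and perlecan form basement membranes. In bone, osteoblasts and their stromal precursors secrete many of these proteins into the unmineralised matrix and the periosteum.

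The libraries held 31934714 to 37561452 counts. Rras2 (chr7:114046782-114117781, minus strand, mm10) had 49.7, 50.1 and 44.7 CPM (counts scaled to the library size, with TMM factors) in the FF libraries and 26.7, 29.0 and 26.8 CPM in the cKO libraries, a 1.75-fold lower level (log2 fold change -0.81, SE 0.07, edgeR adjusted p = 1.08e-05). All 4 marrow stroma markers (Lepr, Cxcl12, Ebf3, Kitl) were measured and all 4 rose, with a summed level of 3797 to 3997 CPM in FF and 5103 to 5497 CPM in cKO. The 6 osteoblast markers summed to 10650 to 11487 CPM in FF and 6443 to 8247 CPM in cKO, with 2 that fell (Runx2, Col1a1) and 4 that did not pass. Those 4 had log2 fold changes of -1.87 (Bglap), -0.70 (Sp7), -0.66 (Alpl) and -0.43 (Ibsp). For all 6 the groups did not overlap and the unadjusted p in edgeR was below 0.05. Most of the osteoblast sum was Col1a1 (8159 CPM on average in FF). The 6 macrophage markers summed to 5065 to 5182 CPM in FF and 5345 to 5535 CPM in cKO, with Tyrobp and Mrc1 higher, so the cultures held transcripts of macrophages beside those of stroma. Adgre1, Csf1r, Cd68 and Ptprc did not pass (log2 fold changes 0.01, 0.02, 0.12 and 0.04). The 4 adipocyte markers summed to 83.8 to 86.6 CPM in FF and 92.4 to 101 CPM in cKO, and Adipoq rose. Plin1, Pparg and Fabp4 did not pass (0.22, 0.02 and 0.09). Smooth muscle and pericyte markers (1693 to 1913 CPM against 1679 to 1970 CPM, 6 of 6 measured), endothelial markers (38.0 to 50.5 CPM against 36.8 to 45.1 CPM, 5 of 6), chondrocyte markers (279 to 353 CPM against 253 to 281 CPM, 2 of 6) and tendon markers (11.1 to 13.2 CPM against 12.1 to 16.4 CPM, 3 of 3) had no member past the test. At an unadjusted p below 0.05 in edgeR there were 2 smooth muscle and pericyte, 1 endothelial, 0 chondrocyte and 1 tendon marker. The share of all genes at that unadjusted p was not counted. Most of the smooth muscle and pericyte sum was Acta2 (1696 CPM on average in FF), and the median log2 fold change of that list was -0.21. The endothelial marker Tek and the chondrocyte markers Col9a1, Matn1, Matn3 and Acan had no row. The part of these marker shifts in the results below was not tested, and in bulk cultures fewer cells of a type and less RNA per cell cannot be told apart.

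Of the 47 measured matrix genes, 20 passed the test between cKO and FF (42.6%), where a gene passes at an adjusted p below 0.05 in edgeR's quasi-likelihood test with Benjamini-Hochberg adjustment over all 12830 genes. Over all genes 621 passed (4.84%). Lower calls numbered 15 (31.9% of members, against 2.74% of all genes) and higher calls 5 (10.6% of members, against 2.1% of all genes). The genes that fell were Postn, Tnn, Thbs1, Thbs2 and Thbs3 among the matricellular genes, the fibulin Fbln2, the laminin chains Lamb2 and Lama4, the perlecan gene Hspg2, and Olfml2b, Olfml3, Megf6, Ccdc80, Srpx2 and Islr. Those that rose were Abi3bp, Efemp1, Smoc1, Fbn1 and Lamb1. The median log2 fold change was -0.16 over the 47 genes and 0.00058 over all genes. In 23 members the 3 cKO libraries all lay below the 3 FF libraries (48.9%, against 11.2% of all genes), in 5 they all lay above (10.6%, against 11.3%), and in 19 the groups overlapped.

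**Figure D1:**
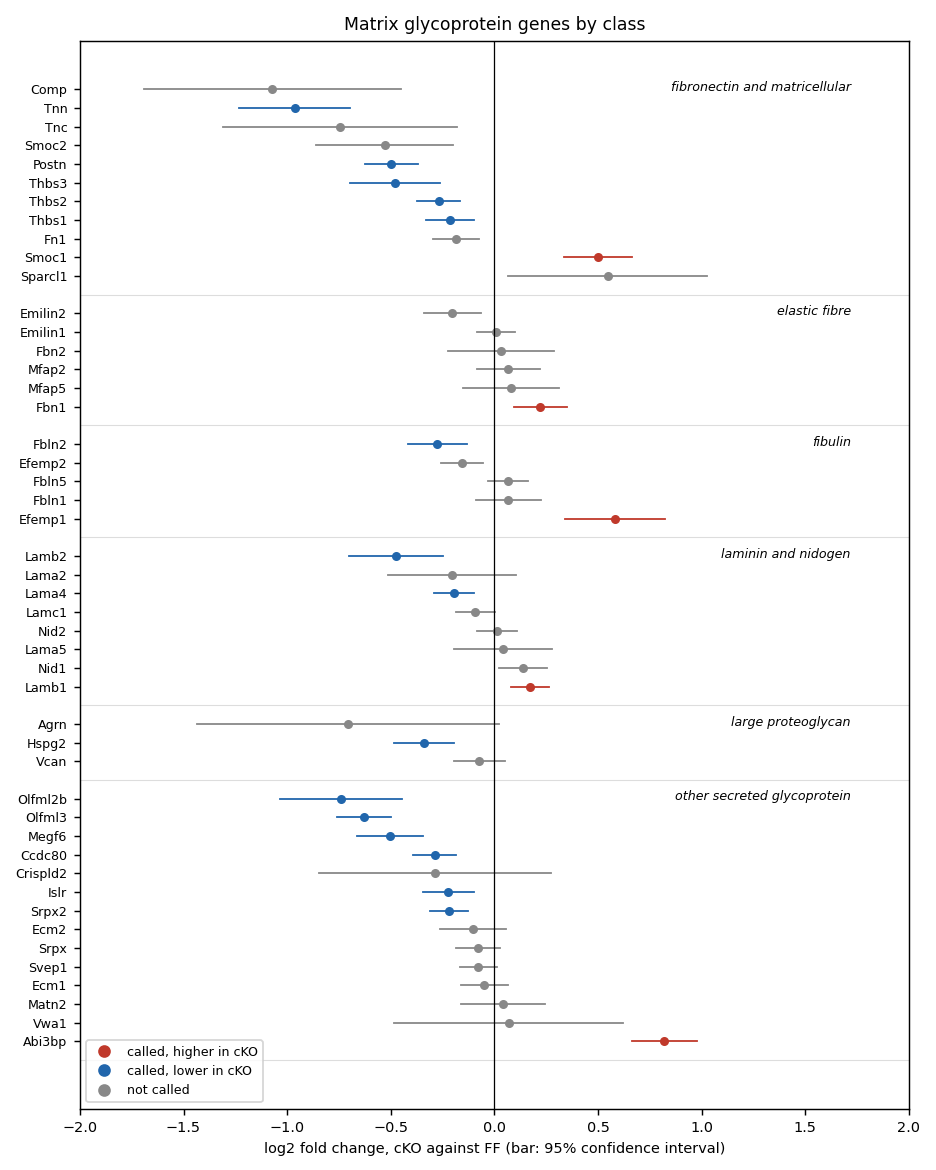
Log2 fold change of cKO against FF for the 47 measured genes, grouped by class, with the 95% confidence interval derived from edgeR's F statistic as a bar. Blue points are the 15 genes that fell, red points the 5 that rose and grey points the 27 that did not pass. Low values gather among the fibronectin and matricellular genes (median -0.48), while the elastic fibre genes lie near 0 (median 0.05).

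The classes differed in how many members fell, as a description without a test of the difference. Among the 11 fibronectin and matricellular genes 5 fell and 1 rose, among the 6 elastic fibre genes 0 fell in edgeR (1, Emilin2, at an unadjusted p below 0.05 and with DESeq2) and 1 rose, and among the 5 fibulins 1 fell and 1 rose. Among the 8 laminin and nidogen genes 2 fell and 1 rose, among the 3 large proteoglycans 1 fell, and among the 14 other secreted glycoproteins 6 fell and 1 rose. The class medians of the log2 fold change ran from -0.48 (fibronectin and matricellular) through -0.34 (large proteoglycan), -0.16 (other secreted), -0.04 (laminin and nidogen) and 0.05 (elastic fibre) to 0.07 (fibulin).

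Levels were compared between genes per transcript length, as the deposited FPKM (fragments scaled by transcript length and library size). Thrombospondin 1 was the most abundant member in the control cells, at 626 ± 26.02 FPKM (SD, n = 3), 20.1% of the members' summed FPKM. Tenascin-C followed at 484 ± 11.9 FPKM (15.5%), then Fn1 at 225 ± 7.49 FPKM, Islr at 221 ± 5.42 FPKM and Postn at 187 ± 3.15 FPKM. Fn1 and Islr did not differ beyond their spread. Ecm1 stood at 160 ± 7.54 FPKM, Efemp2 at 130 ± 3.84 FPKM, and Srpx2 and Thbs2 both at 103 FPKM. The lowest members were Crispld2 (0.367 FPKM), Vwa1 (0.527 FPKM), Lama2 (0.589 FPKM), Fbn2 (0.881 FPKM) and Sparcl1 (0.899 FPKM). In cKO the 5 highest genes were Thbs1 (535 ± 30.9 FPKM), Tnc (286 ± 75.7 FPKM), Fn1 (196 ± 12.9 FPKM), Islr (187 ± 18.5 FPKM) and Ecm1 (156 ± 6.99 FPKM), so Ecm1 stood ahead of Postn there. By CPM per kilobase of annotated exons Ecm1 was ahead of Postn in FF too, so that change of order was seen only by FPKM. Abi3bp moved from place 31 to place 26 of the 47 genes, Tnn from 14 to 18 and Comp from 30 to 36. The 47 genes together gave 3126, 3134 and 3100.4 FPKM in the FF libraries and 2679, 2559 and 2391 FPKM in the cKO libraries, which is 0.792 to 0.810% of all FPKM in FF and 0.602 to 0.686% in cKO. Tnc made up 34.3% of the difference between those sums, Thbs1 15.7% and Postn 9.60%.

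**Figure D2:**
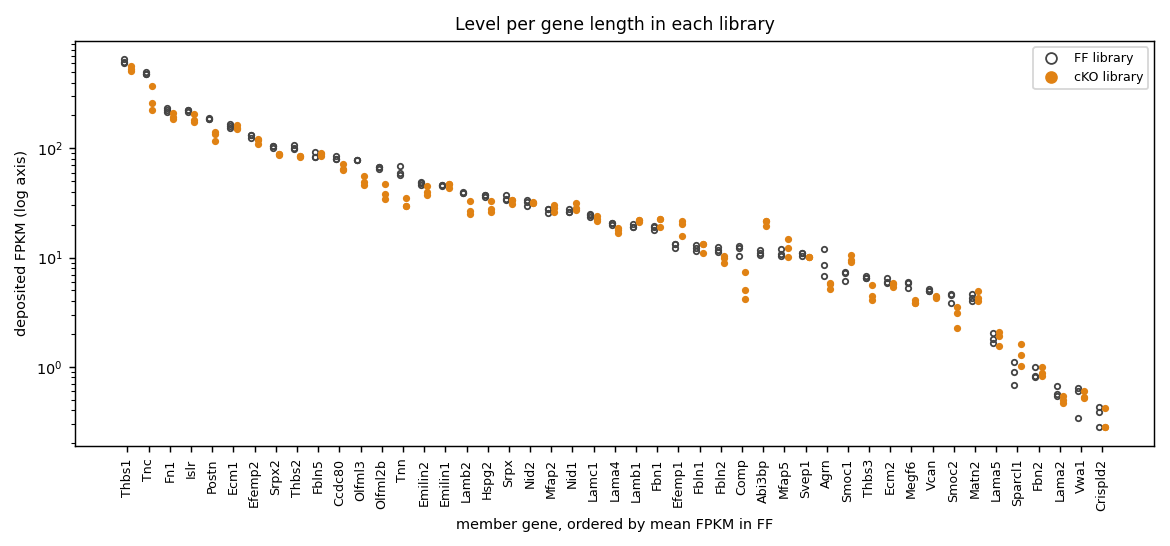
Deposited FPKM of each measured gene in each of the 6 libraries on a log axis, with genes ordered by their mean in FF (open circles FF, filled orange circles cKO). Levels span from Thbs1 at 626 FPKM to Crispld2 at 0.367 FPKM, and the orange points of Tnc, Tnn, Comp and Olfml2b lie below the open circles while those of Abi3bp and Efemp1 lie above.

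Promoter sequences of RefSeq (build GRCm38.p6, the sequence of mm10) were matched by symbol for 32 of the 47 genes, as the 250 bases before the start site. Those of periostin and tenascin-N are shown because both genes fell and only the former window holds a TATA box word, and those of laminin beta 1 and beta 2 because these chains of the same subunit moved in opposite directions. Capitals mark TATAAA or GGGCGG (the TATA and GC box words) on either strand, so that TTTATA and CCGCCC are the other strand. The Postn window is chr3:54360857-54361106 on the plus strand, the Tnn window chr1:160153576-160153825 on the minus strand, the Lamb1 window chr12:31265043-31265292 on the plus strand and the Lamb2 window chr9:108479612-108479861 on the plus strand, each read 5′ to 3′ along its gene. The start sites used lie 2 bases (Postn), 5 bases (Tnn), 59 bases (Lamb1) and 126 bases (Lamb2) from the gene's start in GENCODE M21. Some of the 32 windows counted below lie farther from that start. Among them are Islr (45752 bases), Lama2 (2816 bases), Fbn1 (1555 bases), Emilin2 (422 bases), Emilin1 (384 bases) and Fbln2 (309 bases).
Postn: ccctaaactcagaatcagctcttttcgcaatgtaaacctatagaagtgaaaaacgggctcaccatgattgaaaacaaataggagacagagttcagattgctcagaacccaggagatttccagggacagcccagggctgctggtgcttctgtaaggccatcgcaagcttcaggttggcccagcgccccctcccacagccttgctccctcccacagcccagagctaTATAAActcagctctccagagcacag
Tnn: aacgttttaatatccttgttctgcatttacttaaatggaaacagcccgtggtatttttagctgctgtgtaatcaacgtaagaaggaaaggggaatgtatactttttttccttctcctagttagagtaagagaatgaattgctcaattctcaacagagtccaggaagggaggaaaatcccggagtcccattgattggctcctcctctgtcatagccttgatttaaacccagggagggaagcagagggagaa
Lamb1: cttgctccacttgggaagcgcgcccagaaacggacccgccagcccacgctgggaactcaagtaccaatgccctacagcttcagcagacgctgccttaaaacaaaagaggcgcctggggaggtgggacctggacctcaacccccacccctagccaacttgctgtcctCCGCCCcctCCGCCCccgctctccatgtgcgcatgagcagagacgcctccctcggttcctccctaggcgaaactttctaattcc
Lamb2: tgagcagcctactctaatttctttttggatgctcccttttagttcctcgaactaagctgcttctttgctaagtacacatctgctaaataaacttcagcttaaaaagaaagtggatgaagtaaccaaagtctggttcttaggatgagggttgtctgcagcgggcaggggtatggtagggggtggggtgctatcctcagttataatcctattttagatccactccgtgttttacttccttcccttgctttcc
Postn held TATAAA 26 bases before its start on the gene's strand, and Tnn held neither word. Lamb1 held GGGCGG 2 times with 62.0% G and C, and Lamb2 held 0 copies with 43.6% G and C. TATAAA was present in 3 of the 5 fibronectin and matricellular windows (Postn, Tnc and Thbs2). In Tnc it lay 126 bases before the start on the gene's strand, and in Thbs2 126 bases before it on the other strand. The word was in 5 of the 32 members' windows (15.6%) and in 12.4% of the 32851 windows of the table. GGGCGG was present in 19 of the 32 windows (59.4%, against 32.7% of all), namely 6 of the 12 windows of genes that fell, 3 of the 3 of genes that rose and 10 of the 17 of genes that did not pass. Searched on both strands, TGTGGT (the RUNX word) was in 0 of 32 windows (14.0% of all), TGACGT (CRE) in 1 (6.47% of all), GGCGCC (SMAD) in 7 (9.59%), TGANTCA (AP-1) in 3 (6.75%) and GGAATG (TEAD) in 5 (12.6%). The members' shares count a single window per gene. The shares of all windows count every window of the RefSeq table, also of genes without a row here, so the sets are unlike. These matches are a description of the letters in the window and not of binding.

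Among the matricellular genes, 5 fell: those of periostin, tenascin-N and 3 thrombospondins. Postn (chr3:54361109-54391037, plus strand), the gene of periostin, a periosteal matrix protein that binds integrins and collagen, had 658, 622 and 620.03 CPM in the FF libraries and 482, 458 and 405 CPM in the cKO libraries. All 3 cKO libraries lay below all 3 FF libraries, and cKO replicate 3 was lowest. It fell 1.41-fold (log2 fold change -0.50, SE 0.06, edgeR adjusted p = 3.19e-04). Tnn (chr1:160085029-160153580, minus strand), the gene of tenascin-N (tenascin-W), found in bone and its stem cell niches, had 443, 357 and 377 CPM in FF and 224, 189 and 190.1 CPM in cKO. The groups did not overlap, and FF replicate 1 stood above the other two controls. It fell 1.95-fold, the largest drop among the members that passed (log2 fold change -0.96, SE 0.11, edgeR adjusted p = 0.00791). Without cKO replicate 3 the Tnn adjusted p was 0.05302, so its call ended there.

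The thrombospondin genes Thbs1, Thbs2 and Thbs3 all fell, the former ones by small amounts and Thbs3 by more. Thbs1, which encodes a large adhesive glycoprotein that activates latent TGF-beta, had 3934, 4130.1 and 3932 CPM in FF and 3262, 3657 and 3429 CPM in cKO, a 1.16-fold lower level (log2 fold change -0.21, SE 0.05, edgeR adjusted p = 0.0354). The highest cKO library was replicate 2, still below every FF library. Thbs2, its close relative in matrix-forming stroma, had 703, 629.8 and 649 CPM in FF and 550.05, 547 and 549 CPM in cKO, 1.21-fold lower (log2 fold change -0.27, SE 0.05, edgeR adjusted p = 0.00437). The cKO libraries were almost level with each other. Thbs3, a pentameric thrombospondin made in cartilage and bone, had 23.4, 22.3 and 23.4 CPM in FF and 19.4, 15.7 and 14.4 CPM in cKO, 1.39-fold lower (log2 fold change -0.48, SE 0.10, edgeR adjusted p = 0.01396). Its exons share 318 bases with Mtx1 on the opposite strand, and since the strand setting of the counting is not given in the sources used here, reads there cannot be told apart. The Thbs1 call ended without FF replicate 1, 2 or 3 or cKO replicate 3 (edgeR adjusted p 0.0597, 0.214, 0.0955 and 0.116), and the Thbs3 call ended without any of FF replicates 1 to 3, cKO replicate 2 or cKO replicate 3 (0.0515, 0.0583, 0.0633, 0.0888 and 0.0613).

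Smoc1 (chr12:81026808-81186414, plus strand), which encodes a modular calcium-binding protein that antagonises BMP signalling, had 23.7, 27.5 and 27.3 CPM in FF and 39.9, 35.9 and 35.1 CPM in cKO. All cKO libraries lay above all FF libraries. It rose 1.41-fold (log2 fold change 0.50, SE 0.08, edgeR adjusted p = 0.00151). Its relative Smoc2 had 14.5, 13.9 and 11.8 CPM in FF and 7.07, 9.74 and 11.1 CPM in cKO without overlap (log2 fold change -0.53, 95% interval -0.86 to -0.20, edgeR adjusted p = 0.0774). Smoc2 did not pass, but passed with DESeq2 (adjusted p = 0.0123) and without cKO replicate 3 (edgeR adjusted p = 0.02505).

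The tenascin-C and COMP genes had large differences that did not pass, with wide spread in cKO. Tnc, whose hexameric product modulates adhesion and is induced in remodelling bone, had 3942, 3610.4 and 3678 CPM in FF and 2886, 2039 and 1781 CPM in cKO. The groups did not overlap, and cKO replicate 1 stood nearest to the controls. Its log2 fold change was -0.74 (95% interval -1.31 to -0.18, edgeR adjusted p = 0.182). Comp, a pentameric thrombospondin family member of cartilage and tendon that assembles collagen, had 34.1, 31.7 and 27.1 CPM in FF and 19.6, 13.3 and 11.3 CPM in cKO. Here too cKO replicate 1 was the highest of its group, below every FF library (log2 fold change -1.07, 95% interval -1.69 to -0.45, edgeR adjusted p = 0.102). Fn1, the fibronectin gene, had 1927, 1993 and 1951 CPM in FF and 1829, 1705 and 1625 CPM in cKO, also without overlap (log2 fold change -0.19, 95% interval -0.30 to -0.08, edgeR adjusted p = 0.0544). Without cKO replicate 1 all of them passed, at edgeR adjusted p = 6.26e-07 for Tnc, 6.78e-06 for Comp and 0.0032 for Fn1, and with DESeq2 on all 6 libraries the adjusted p was 0.0142, 0.00144 and 0.00343. With limma-voom Tnc (adjusted p = 0.0277) and Comp (0.0126) passed as well. Sparcl1, the gene of the SPARC-like protein hevin, overlapped between groups at 2.06 to 3.33 CPM in FF and 3.14 to 4.903 CPM in cKO (log2 fold change 0.55, 95% interval 0.07 to 1.03).

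**Figure D3:**
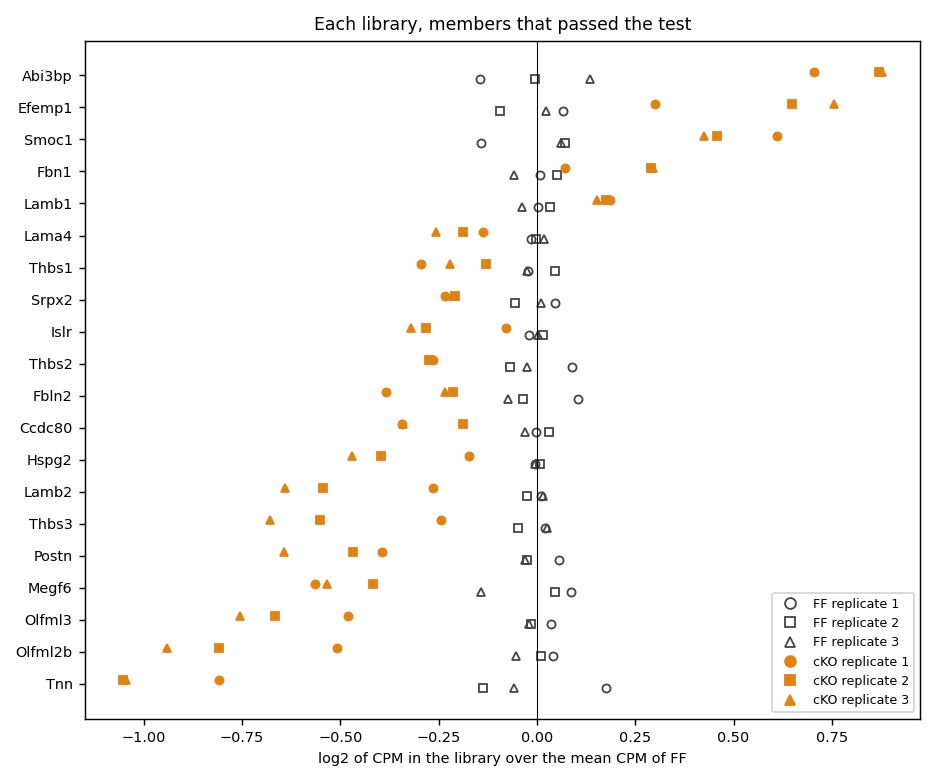
Log2 of the CPM in each library over the mean CPM of FF for the 20 genes that passed the test, ordered by log2 fold change (open symbols FF, orange symbols cKO, with the replicate number as the shape). For 10 of the 15 genes that fell the orange circle of cKO replicate 1 lies nearest to 0.

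The elastic fibre genes moved little. Fbn1 (chr2:125300594-125507993, minus strand), the gene of fibrillin-1, the backbone of microfibrils that also stores latent TGF-beta, had 235, 242 and 225 CPM in FF and 246, 286 and 287 CPM in cKO. The lowest cKO library, replicate 1, lay just above the highest control. It rose 1.17-fold (log2 fold change 0.22, SE 0.06, edgeR adjusted p = 0.0486). That call ended with limma-voom (adjusted p = 0.118) and without FF replicate 1, 2 or 3 or cKO replicate 2 or 3 (edgeR adjusted p 0.138, 0.109, 0.176, 0.207 and 0.187). Gm9913, a gene without a row, overlaps 2442 bases (20.1%) of its exons on the opposite strand. Emilin2, an elastic fibre glycoprotein gene, had 212, 201 and 194 CPM in FF and 193, 160.4 and 173 CPM in cKO (log2 fold change -0.20, 95% interval -0.34 to -0.07, edgeR adjusted p = 0.103), and passed with DESeq2 (adjusted p = 0.0299) and without cKO replicate 1 (edgeR adjusted p = 0.00146). The microfibril genes Mfap5 (0.08, 95% interval -0.15 to 0.31) and Mfap2 (0.07, -0.09 to 0.22) had log2 fold changes near 0. So did the second fibrillin gene Fbn2 (0.03, 95% interval -0.22 to 0.29) and Emilin1 (0.01, -0.08 to 0.10).

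Among the fibulins, calcium-binding proteins that link fibrillin, elastin and basement membrane, 1 gene rose and 1 fell. Efemp1 (chr11:28853204-28926743, plus strand), the gene of fibulin-3, had 30.1, 26.98 and 29.2 CPM in FF and 35.5, 45.1 and 48.6 CPM in cKO. The groups did not overlap, and cKO replicate 1 was nearest to the controls. It rose 1.496-fold (log2 fold change 0.58, SE 0.11, edgeR adjusted p = 0.0148). Fbln2 (chr6:91212455-91272540, plus strand), the gene of fibulin-2, had 64.1, 58.3 and 56.7 CPM in FF and 45.7, 51.5 and 50.7 CPM in cKO. All cKO libraries lay below all FF libraries, and it fell 1.21-fold (log2 fold change -0.28, SE 0.07, edgeR adjusted p = 0.0283). Efemp2, the gene of fibulin-4, which brings lysyl oxidase to elastic fibres, had 232, 222 and 231 CPM in FF and 212, 211 and 193 CPM in cKO (log2 fold change -0.16, 95% interval -0.26 to -0.05, edgeR adjusted p = 0.0816), and passed with DESeq2 (adjusted p = 0.0445) and without cKO replicate 1 (edgeR adjusted p = 0.0212). Its exons share 173 bases with Mus81 on the other strand. Fbln5 (0.07, 95% interval -0.03 to 0.16) and Fbln1 (0.07, -0.09 to 0.22) had log2 fold changes near 0. The Efemp1 call ended without FF replicate 2 or 3 or cKO replicate 2 (edgeR adjusted p 0.0908, 0.0751 and 0.0843). The Fbln2 call ended with limma-voom (adjusted p = 0.0657) and without FF replicate 1 or 2 or cKO replicate 2 or 3 (edgeR adjusted p 0.127, 0.0863, 0.0543 and 0.0518).

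Laminins are trimers of an alpha, a beta and a gamma chain, and their genes did not move as a block. Lamb2 (chr9:108479736-108490530, plus strand), the beta 2 chain of mature basement membranes, had 243, 237 and 244 CPM in FF and 201, 166 and 155 CPM in cKO. The groups did not overlap, and cKO replicate 1 was the nearest to the controls. It fell 1.39-fold (log2 fold change -0.47, SE 0.09, edgeR adjusted p = 0.0415). Lama4 (chr10:38965515-39110188, plus strand), the alpha 4 chain of mesenchymal and vascular laminins, had 133, 135 and 136 CPM in FF and 123, 118 and 113 CPM in cKO. It fell 1.14-fold with no overlap (log2 fold change -0.19, SE 0.05, edgeR adjusted p = 0.0237). Lamb1 (chr12:31265234-31329644, plus strand), the beta 1 chain that can take the place of beta 2 in a trimer, had 123, 125 and 119 CPM in FF and 139, 138 and 136 CPM in cKO. Every cKO library lay above every FF library, and it rose 1.13-fold (log2 fold change 0.17, SE 0.04, edgeR adjusted p = 0.0318). These 3 calls ended in most fits with 1 library left out. In those fits 2.09 to 2.95% of all genes passed, against 4.84% in the main fit. The Lamb2 call ended with upper-quartile factors (0.0517) and without FF replicate 1, 2 or 3 or cKO replicate 2 (edgeR adjusted p 0.127, 0.123, 0.119 and 0.169), that of Lama4 without any library but cKO replicate 1 (0.0543 to 0.121), and that of Lamb1 with limma-voom (0.0507) and without any library but cKO replicate 1 (0.0777 to 0.139).

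The gamma 1 chain gene Lamc1, shared by most laminins, had 200.4 CPM on average in FF and 188 CPM in cKO (log2 fold change -0.09, 95% interval -0.19 to 0.00). Lama2, the alpha chain of muscle and nerve laminin, had a log2 fold change of -0.21 (95% interval -0.51 to 0.10) at under 1 FPKM, and Lama5 of 0.04 (-0.19 to 0.28). The nidogens, which tie the laminin network to type IV collagen, had log2 fold changes of 0.14 for Nid1 (95% interval 0.02 to 0.25, edgeR adjusted p = 0.191) and 0.01 for Nid2 (-0.08 to 0.11). Nid1 passed without cKO replicate 1 (edgeR adjusted p = 0.0177). Exons of Nid2 share 437 bases with Rtraf on the opposite strand.

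Ratios within a library put such related genes side by side. The FPKM of Lamb1 over that of Lamb2 was 0.493, 0.515 and 0.478 in FF and 0.678, 0.819 and 0.855 in cKO (means 0.495 ± 0.0187 and 0.784 ± 0.0935, SD, n = 3 each). The ratio lay higher in every cKO library, by 0.66 on the log2 scale. Smoc1 over Smoc2 was 1.34, 1.63 and 1.89 in FF and 4.66, 3.03 and 2.60 in cKO, a log2 difference of 1.05. Efemp1 over Efemp2 was 0.1002, 0.0980 and 0.101 in FF and 0.133, 0.166 and 0.196 in cKO, a log2 difference of 0.71. These 3 pairs were chosen after their values were seen, so no test was made of the ratios.

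**Figure D4:**
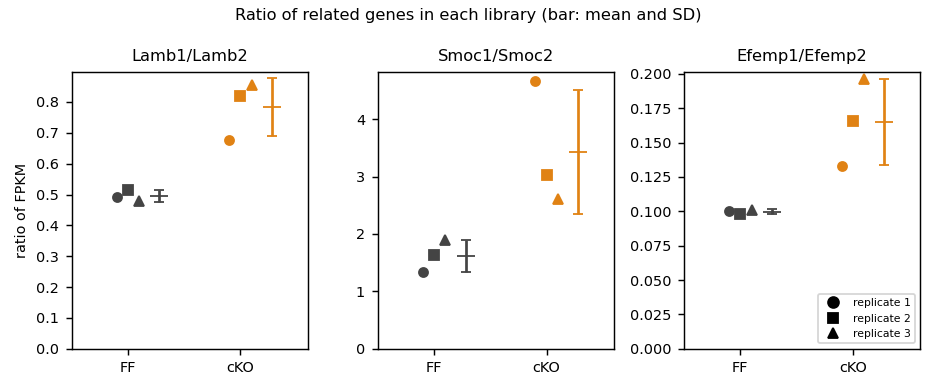
Ratio of the deposited FPKM of related genes in each library (points, shape by replicate number), with the mean and SD of each group beside them. All 3 cKO points lie above all 3 FF points for Lamb1 over Lamb2, Smoc1 over Smoc2 and Efemp1 over Efemp2.

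Of the large proteoglycans, 1 of 3 measured genes fell. Hspg2 (chr4:137468769-137570630, plus strand), the gene of perlecan, a heparan sulphate proteoglycan of basement membranes and cartilage that binds FGFs, had 573, 577 and 572 CPM in FF and 509, 436 and 414 CPM in cKO. The FF libraries were nearly level, and cKO replicate 1 stood nearest to them. It fell 1.27-fold (log2 fold change -0.34, SE 0.07, edgeR adjusted p = 0.0129), and did not pass when FF replicate 2, FF replicate 3 or cKO replicate 2 was removed (edgeR adjusted p 0.0677, 0.0534 and 0.0883). Agrn, the gene of agrin, which clusters acetylcholine receptors at synapses and is also made by stroma, had 92.2, 63.4 and 50.6 CPM in FF and 45.1, 36.7 and 44.6 CPM in cKO. The groups did not overlap, but the FF libraries were far apart, and it did not pass (log2 fold change -0.71, 95% interval -1.43 to 0.02, edgeR adjusted p = 0.299). Vcan, the gene of versican, a hyaluronan-binding proteoglycan, had 50.9, 54.2 and 53.9 CPM in FF and 48.8, 51.1 and 51.4 CPM in cKO, with overlap (log2 fold change -0.07, 95% interval -0.19 to 0.05, edgeR adjusted p = 0.581).

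The remaining secreted glycoproteins held the gene with the smallest p among the members. Abi3bp (chr16:56477878-56690135, plus strand), which encodes an integrin-binding matrix protein also called TARSH, had 48.6, 53.6 and 59.1 CPM in FF and 87.6, 98.4 and 98.9 CPM in cKO. All cKO libraries lay well above all FF libraries. It rose 1.77-fold (log2 fold change 0.82, SE 0.07, edgeR adjusted p = 4.56e-05). Olfml3 (chr3:103722222-103738001, minus strand), the gene of a secreted olfactomedin-like scaffold protein, had 480.2, 464 and 462 CPM in FF and 336, 296 and 278 CPM in cKO. It fell 1.55-fold with no overlap (log2 fold change -0.63, SE 0.06, edgeR adjusted p = 9.98e-05). Its relative Olfml2b (chr1:170644532-170682789, plus strand), whose product is a photomedin, had 232, 227 and 218 CPM in FF and 159, 129 and 118 CPM in cKO. It fell 1.67-fold (log2 fold change -0.74, SE 0.12, edgeR adjusted p = 0.0309), and cKO replicate 1 was again the highest of its group.

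Megf6 (chr4:154170730-154275713, plus strand), a gene of a secreted protein with many EGF-like repeats, had 42.05, 40.9 and 35.9 CPM in FF and 26.8, 29.7 and 27.3 CPM in cKO, and fell 1.42-fold (log2 fold change -0.50, SE 0.07, edgeR adjusted p = 0.00108). Ccdc80 (chr16:45093402-45128077, plus strand), whose product binds heparin and promotes cell adhesion, had 332, 340.4 and 326 CPM in FF and 262, 292 and 263 CPM in cKO. The groups did not overlap, and it fell 1.22-fold (log2 fold change -0.29, SE 0.05, edgeR adjusted p = 0.002895). Srpx2 (chrX:133908426-133932446, plus strand), the gene of a sushi-repeat ligand of the urokinase receptor, had 278, 259 and 271 CPM in FF and 229, 233 and 232 CPM in cKO. Its cKO libraries were close together below the controls, and it fell 1.16-fold (log2 fold change -0.22, SE 0.04, edgeR adjusted p = 0.00764). Islr (chr9:58156268-58204306, minus strand), which encodes Meflin, a surface marker of mesenchymal stromal cells, had 503, 515 and 511 CPM in FF and 483, 419 and 408 CPM in cKO. It fell 1.17-fold (log2 fold change -0.22, SE 0.06, edgeR adjusted p = 0.0415), with cKO replicate 1 close to the controls. Exons of Islr share 181 bases with Islr2 on the same strand, which has no row.

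The Olfml2b call ended without FF replicate 1, 2 or 3 or cKO replicate 2 (edgeR adjusted p 0.107, 0.113, 0.0781 and 0.137), and the Islr call with limma-voom (0.0924) and without any library but cKO replicate 1 (0.0945 to 0.186). Of the 7 remaining genes of the class, those with the largest differences were Crispld2 (log2 fold change -0.29, 95% interval -0.85 to 0.27), Ecm2 (-0.10) and Srpx (-0.08), and Srpx shares 208 bases of its exons with Rpgr on the same strand. Svep1, a large adhesion protein gene, lay lower in every cKO library (133, 137 and 138 CPM in FF against 128, 128 and 131 CPM in cKO) but did not pass (log2 fold change -0.08, edgeR adjusted p = 0.366). Ecm1 (-0.05), Matn2 (0.04) and Vwa1 (0.07) had log2 fold changes near 0, of which Vwa1 had a wide 95% interval of -0.48 to 0.62.

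The cKO libraries were not alike for the genes that fell. Replicate 1 was the nearest of its group to the FF mean for 24 of the 47 members (51.1%, against 40.7% of all genes) and for 10 of the 15 that fell. It was also the farthest for 15 of the 47 members (31.9%, against 29.0% of all genes), among them the other 5 of the 15 that fell. Over all 47 members the median log2 ratio to the FF mean was -0.10 in cKO replicate 1, -0.12 in replicate 2 and -0.15 in replicate 3. Over the 20 that passed it was -0.25, -0.24 and -0.29, in the same order. Over the 15 genes that fell it was -0.29 in cKO replicate 1, -0.40 in replicate 2 and -0.47 in replicate 3. The summed osteoblast markers were likewise highest in cKO replicate 1 within the group, at 8247 CPM against 7435 and 6443 CPM, and their part in this was not tested. Left out of the fit, replicate 1 took the count of members that passed from 20 to 26 (20 lower and 6 higher, with 9.09% of all genes passing), and the 6 members that gained a call were Fn1, Tnc, Comp, Emilin2, Efemp2 and Nid1. The calls of Postn, Thbs2, Smoc1, Abi3bp, Olfml3, Megf6, Ccdc80 and Srpx2, 8 of the 20, held in every one of the 14 alternative settings. Among these settings, the one with no filter repeats the main fit and could not end a call. At its own adjusted p below 0.05 the authors' deposited table called 848 genes (6.61% of all), of which 26 were members, 21 lower and 5 higher. The DESeq2 setting gave the same numbers from the same counts, with the same Tnn log2 fold change (-0.965), so this is not a separate check.

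**Figure D5:**
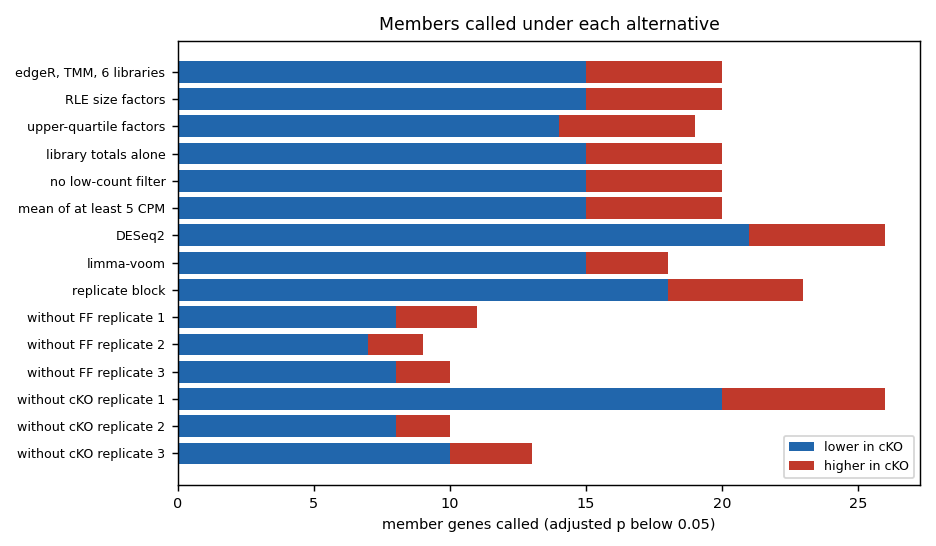
Number of member genes that passed the test (adjusted p below 0.05) under the main setting, at the top, and each of the 14 alternatives, as bars from 0 (blue lower in cKO, red higher). Leaving out cKO replicate 1 or using DESeq2 gives 26 genes, and leaving out any of the other libraries gives 9 to 13.

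Genes that work with these proteins were read from 5 lists, against 4.84% of all genes that passed (2.1% higher, 2.74% lower). Those shares are at the adjusted p. The share of all genes at an unadjusted p below 0.05 was not counted, so the unadjusted counts below have no background share. Of 11 measured of 15 other matricellular and small secreted genes 2 rose and 3 fell, and 7 had an unadjusted p below 0.05 in edgeR. Cthrc1, a secreted collagen triple helix repeat protein gene, fell from 36.3 ± 0.815 CPM in FF to 15.5 ± 1.04 CPM in cKO (SD, n = 3 each, log2 fold change -1.23, edgeR adjusted p = 4.86e-07). Ccn4, the gene of WISP1, fell from 70.05 ± 0.819 to 51.4 ± 3.84 CPM (-0.45, edgeR adjusted p = 6.56e-04), and Ccn5 rose from 147 ± 5.02 to 186 ± 9.94 CPM (0.34, edgeR adjusted p = 9.17e-04). Sparc, the gene of osteonectin (-0.34), fell and Spon2 (0.29) rose, both named after their values were seen. Of 13 measured of 16 elastic fibre assembly genes 1 rose, Adamtsl4 (0.36, edgeR adjusted p = 0.0271), and 0 fell. At an unadjusted p below 0.05 in edgeR there were 6 of the 13. The crosslinking enzyme gene Lox, named after its values were seen, had a log2 fold change of -0.0018. The Spon2 call ended with limma-voom (adjusted p = 0.0673) and without FF replicate 1, 2 or 3 or cKO replicate 2 (edgeR adjusted p 0.117, 0.0954, 0.0548 and 0.128), and that of Adamtsl4 with limma-voom (0.0655) and without FF replicate 2 or 3 or cKO replicate 2 or 3 (0.161, 0.123, 0.0969 and 0.0565).

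Of 12 measured of 14 other laminin, netrin and basement membrane genes, the alpha 1 chain gene Lama1 rose (9.74 ± 0.264 to 12.5 ± 0.398 CPM, log2 fold change 0.37, edgeR adjusted p = 0.0448) and Ntn4, a netrin that disrupts laminin networks, fell (6.07 ± 1.16 to 3.58 ± 0.832 CPM, -0.76, edgeR adjusted p = 0.03996). An unadjusted p below 0.05 in edgeR was reached by 5 of the 12. Leaving out any single library ended the Lama1 call (edgeR adjusted p 0.0614 to 0.164), and leaving out FF replicate 2 or 3 or cKO replicate 2 or 3 ended that of Ntn4 (0.236, 0.113, 0.149 and 0.156); both also missed the threshold with limma-voom (0.0542 and 0.101). Of 8 measured of 13 hyaluronan and proteoglycan partners 0 passed in edgeR, 2 at an unadjusted p below 0.05, and 1 passed with DESeq2. Of 22 receptor genes, all measured, 1 rose: Cd36, a thrombospondin receptor also found on macrophages and adipocytes, went from 299 ± 17.9 to 393 ± 33.1 CPM (0.39, edgeR adjusted p = 0.00449). A single call among 22 genes is close to the share of all genes that passed, and the count was 2 with limma-voom, 3 with DESeq2 and 5 without cKO replicate 1. The median log2 fold change over the receptors was -0.02, with a range of -0.65 to 1.01. In edgeR 7 of the 22 had an unadjusted p below 0.05, for which no share of all genes was counted. The summed macrophage and adipocyte markers were higher in every cKO library as given above, and their part in the Cd36 result was not tested.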

How the data were processed

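The 6 libraries were made with a stranded messenger RNA kit, per the labels' protocols. The authors deposited a count and an FPKM value per gene and library, with log2 fold changes and p-values of their own comparison, per the file headers. The genome build named in the submitters' processing notes is mm10. Which aligner and counter were used, and with which strand setting, was not stated.

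From the deposited counts, edgeR 4.0.16 (R 4.3.3) tested cKO against FF with TMM scaling and robust quasi-likelihood fits, at an adjusted p below 0.05 over all 12830 genes. The low-count filter (filterByExpr) removed 0 genes, since the lowest mean count was 22.3. CPM are TMM-scaled counts. The script was tested on simulated data. Levels between genes used the deposited FPKM. Alternatives used RLE, upper-quartile or no factors, no filter or a mean of at least 5 CPM, DESeq2 1.42.0, limma-voom (limma 3.58.1), a replicate block, and each library left out. Gene positions came from GENCODE M21, which matched 12611 gene IDs and all 47 members.

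Every member that passed is named with each library's value. Of the others, those with the largest differences in each class are named, and members named beyond these were chosen after their values were seen. Partner lists give up to 3 genes that passed, by smallest p, and those named beyond these were chosen after their values were seen. The members and lists were chosen with earlier results of these data known.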

Additional observations from a re-analysis of the deposited data

How the results depend on the processing

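The 15 lower and 5 higher calls were the same in number with RLE factors, library totals alone and a filter at 5 CPM. The setting with no filter repeated the main fit, since the filter removed 0 genes, and so could not differ from it. DESeq2 gave 21 lower and 5 higher (848 of all genes, 6.61%), limma-voom 15 lower and 3 higher (434, 3.38%), and upper-quartile factors 14 lower and 5 higher (602, 4.69%). With a replicate block, 669 genes passed, 18 members lower and 5 higher, with Comp (adjusted p = 8.71e-05), Fn1 (0.0433) and Emilin2 (0.0231) gained, and among the partner genes Lama1 (0.0701) and Ntn4 (0.0545) not passing; the same-numbered libraries' deviations correlated at -0.042, 0.063 and -0.146, so the numbers are not taken as pairs. Leaving out each library in turn gave 268 to 1166 genes, 7 to 20 members lower, 2 to 6 higher, and a median log2 fold change of -0.175 to -0.113.

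Signs turned, without a call, only when a library was left out: the log2 fold change ranged from -0.038 to 0.15 for Fbn2, -0.0087 to 0.040 for Emilin1, -0.018 to 0.18 for Mfap5, -0.053 to 0.15 for Lama5, -0.021 to 0.047 for Nid2, -0.083 to 0.0049 for Ecm1, -0.17 to 0.23 for Vwa1 and -0.041 to 0.10 for Matn2. With 3 libraries a group, the printed intervals bound how precisely the genes that did not pass were measured. They were widest for Agrn (-1.43 to 0.02), Comp (-1.69 to -0.45) and Tnc (-1.31 to -0.18). Those of the low-count genes Crispld2 (-0.85 to 0.27) and Vwa1 (-0.48 to 0.62) were wide too.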

Other observations

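Agrn and Vwa1, neighbours on chromosome 4 with 390.6 kb between them, had the widest relative spread among the FF libraries, with coefficients of variation of 31.0% and 31.5% in FF against 11.1% and 8.41% in cKO. The highest Agrn value was that of FF replicate 1. Smoc2 and Thbs2, 260.7 kb apart on chromosome 17, both had lower values in every cKO library, and only Thbs2 passed the test.

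The deposited FPKM and the counts gave nearly the same differences. The log2 ratio of the group means differed between FPKM and CPM by more than 0.1 for 2 of the 47 members (4.26%, against 4.49% of 12829 genes). Vcan was at 4.95, 5.20 and 4.98 FPKM in FF and 4.46, 4.39 and 4.24 FPKM in cKO, without overlap, a log2 ratio of -0.21, while its CPM overlapped at a log2 ratio of -0.07. Crispld2 had a log2 ratio of -0.17 by FPKM and -0.29 by CPM. Of the 10 members highest by FPKM in FF, 7 were also among the 10 highest by CPM per kilobase of annotated exons.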
